A study of Mus musculus with 32 samples.

Results

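Collagens and laminins are the structural proteins of the extracellular matrix, and here they comprise every gene on a mouse expression array whose file name begins with COL or LAM in the pattern used for their chains. The pattern found 46 of 18118 genes. One of them, the file's COL4A3BP, is the ceramide transfer protein now called Cert1 and was set aside as a match of names only, which left 45 chains, 36 collagens and 9 laminins. A chain counted as detected where its detection value exceeded 0.95 on all 4 arrays of at least 1 group. This held for 21 chains, 15 collagens and 6 laminins, of which 14 were detected in both tissues, 2 in the cortex alone and 5 in the striatum alone.

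RNA came from the right cortex and the right striatum of male wild-type C57BL/6J mice aged 8 to 10 weeks. A suture closed the middle cerebral artery for 2 h and was then withdrawn, and tissue was taken after 2, 8 or 24 h of reperfusion (I/R). Sham mice had the anaesthetic and the neck incision without a suture, so the sham groups carry no control for the suture itself. Each of the 8 groups, sham and 3 times in each tissue, had 4 arrays. The labels do not say whether the arrays of a group came from single or pooled mice, nor whether a cortex and a striatum array came from the same mouse, so p-values measure the spread between these arrays.

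Basement membranes are thin sheets in which a laminin network and a type IV collagen network are joined by nidogen and perlecan. Each laminin is a trimer of an alpha, a beta and a gamma chain, and each collagen is a trimer of collagen chains that are hydroxylated and folded in the endoplasmic reticulum before secretion. In the brain these sheets surround every vessel, between endothelial cells, pericytes and astrocyte endfeet, while fibrillar collagens are made mainly by fibroblasts of the meninges and large vessels. Loss of the vascular basement membrane is a known feature of ischaemic brain injury.

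The median raw signal per array ran from 70.0 to 88.7 in the cortex and from 57.2 to 103.7 in the striatum, with 49.8% to 54.0% and 52.3% to 55.2% of probes detected. Values below are log2 normalized signals, on which a difference of 1 is a doubling, and no level is compared between genes because each comes from its own probe. The tissue labels were checked on neuronal genes, of which Slc17a7 differed between the sham tissues and Ppp1r1b did not. The striatal gene of this check thus did not separate the tissues. Slc17a7, the glutamate transporter of cortical neurons, was 9.49 in sham striatum and 11.57 in sham cortex (limma adjusted p = 5.6e-05), whereas Ppp1r1b, the DARPP-32 gene of striatal projection neurons, had means of 11.58 ± 0.10 in sham cortex and 11.52 ± 0.55 (SD, n = 4) in sham striatum. Ttr, the transthyretin gene of the choroid plexus, lay between 9.97 and 14.06 on all 32 arrays. The 6 measured genes of a 7-gene choroid plexus list summed on the linear scale to 8189 to 14015 in sham cortex and 15542 to 17945 in sham striatum.

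Single arrays stood apart from the rest of their group at 24 h. Cd14, a receptor of activated myeloid cells, stood at 10.78, 6.00, 9.40 and 9.98 on cortex I/R 24 h replicates 1 to 4, and at 9.56, 6.03, 9.37 and 6.01 on the striatum arrays. Sham arrays read 6.08 to 6.44 in the cortex and 5.96 to 6.81 in the striatum, so cortex replicate 2 lay just below the sham arrays and striatum replicates 2 and 4 lay among them. Gfap, the astrocyte filament gene that rises in reactive astrocytes, gave 10.23, 8.40, 9.38 and 9.83 in the cortex and 9.57, 8.38, 9.59 and 8.08 in the striatum, with the same 3 arrays lowest. Cldn5, the tight junction gene of brain endothelium, was above every sham array on all of them, at 9.68 to 10.53 in the cortex and 9.58 to 10.05 in the striatum. Results at 24 h are therefore also given without single arrays. Each tissue was run on 4 slides. Each I/R time had a position of its own on the slide and sham arrays stood at positions A and E, so position and group cannot be told apart. In each tissue sham replicates 1 and 2 were both on slide 4, and slide 2 held no sham array.

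Of the 45 chains, 24 were not detected by the rule. The fibrillar chains Col1a1, Col1a2 and Col3a1 were detected on at most 2 of 4 arrays of any group. Of these 24 chains, 14 were on no array and 20 on at most 1 of 4 arrays in every group. Just outside the threshold, Col24a1 reached 3 of 4 cortex arrays at 8 h, with a mean raw signal of 78.0. Just inside it, Col2a1, the cartilage collagen, was detected on all 4 striatum arrays at 8 h with a mean raw signal of 81.2, and on 2, 3 and 2 arrays in sham, at 2 h and at 24 h. The rest were not detected: Col10a1, Col11a1, Col13a1, Col14a1, Col15a1, Col17a1, Col19a1, Col27a1, Col28a1, Col4a3, Col4a4, Col4a5, Col4a6, Col5a2, Col5a3, Col8a2, Col9a3, Lama4 and Lamb1. At this signal their absence cannot be told from a low level.

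The test used the brightest probe of each gene, and 19 chains entered it in each tissue and 22 in the fit of all 32 arrays. Col18a1, Col7a1 and Col9a1 entered in the cortex through their brightest probe, although the gene's mean over probes did not pass there, and Col2a1 passed there as a mean of probes but not through its brightest probe. For a chain that entered only through groups where it was high, entry favours a difference without forcing one. Its call is then no support for a count, which bears on Col6a2, Lamb3 and Lamc3 below. Col11a2 entered the cortex test through the 24 h group alone and did not pass.

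In the cortex 0 of 19 chains passed limma's adjusted p threshold of 0.05 at 2 h against sham, against 1.16% of all genes tested, with 1 chain under an unadjusted p of 0.05. At 8 h 1 of 19 rose and none fell, against 7.12% of all genes called, 3.72% higher and 3.4% lower. At 24 h 5 rose and 1 fell, against 14.1% of all genes, 6.96% higher and 7.16% lower. In the striatum 0 of 19 passed at 2 h, against 0.183% of all genes, with 3 under an unadjusted p of 0.05. At 8 h 1 rose and none fell, against 3.51% of all genes, 1.72% higher and 1.78% lower. At 24 h 2 fell and none rose, against 17.6% of all genes, 9.35% higher and 8.24% lower. The median log2 difference of the 19 chains at 24 h was 0.14 in the cortex and 0.03 in the striatum, beside -0.03 and -0.02 over all genes, and at 2 and 8 h it lay between -0.04 and 0.04 in both tissues.

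**Figure D1:**
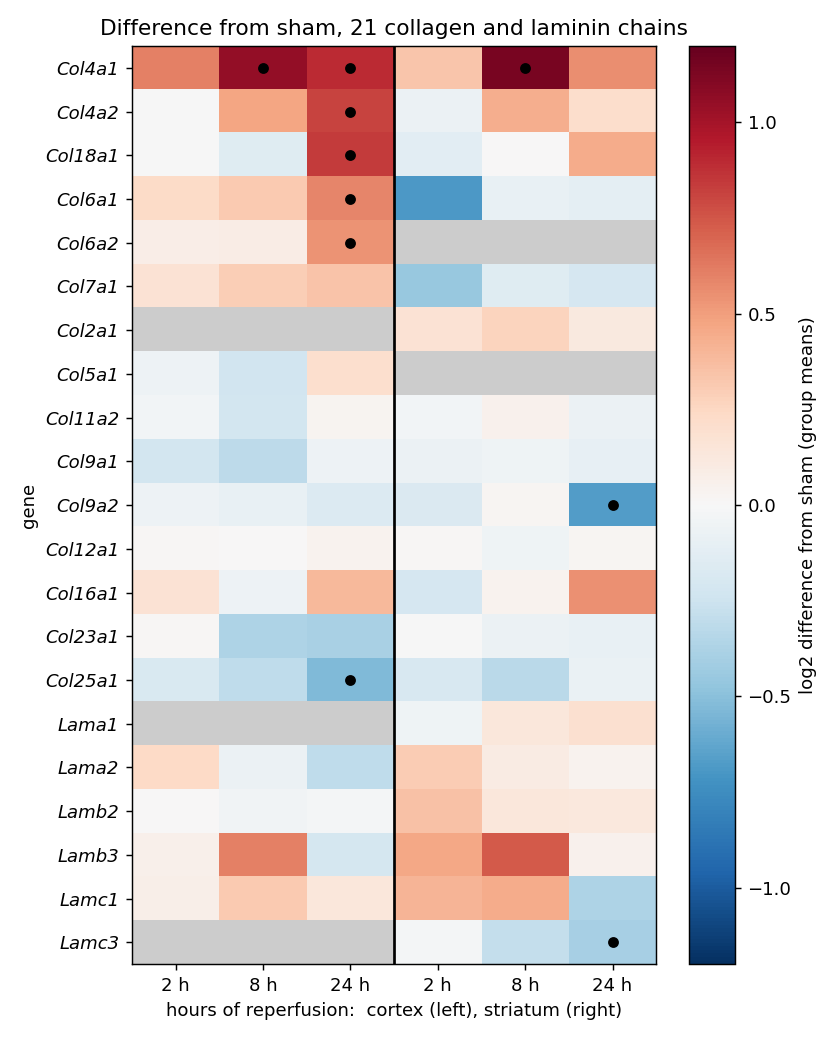
Log2 difference from sham (colour) of 21 tested chains (rows) at 2, 8 and 24 h of reperfusion in the cortex (left columns) and striatum (right columns), with group means of 4 arrays. Black dots mark adjusted p under 0.05 in limma and grey marks a chain not tested in that tissue. The dots of higher values lie on Col4a1 at 8 h in both tissues and on 5 chains in the cortex at 24 h, and those of lower values on Col25a1 in the cortex and on Col9a2 and Lamc3 in the striatum at 24 h.

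The 2 main chains of vascular type IV collagen, Col4a1 and Col4a2, are encoded next to each other and are shown first by sequence because their transcripts begin on top of each other. In RefSeq's GRCm38.p6 promoter table, which held 33 of the 45 chains, Col4a1 starts at position 11312826 of chromosome 8 on the minus strand and Col4a2 at 11312805 on the plus strand. The RefSeq gene span of Col4a1 runs on to 11312889, upstream of the start used here, so what follows holds for these starts only. The 22 bases between and including them, chr8:11312805-11312826, are the first bases of transcripts with these starts, read 5′ to 3′ on opposite strands.
Col4a1 start: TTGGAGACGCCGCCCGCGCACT
Col4a2 start: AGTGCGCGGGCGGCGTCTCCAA
All letters are capitals because all of them are shared. The windows from 250 bases before to 50 bases after each start overlap in 78 bases and have a GC content of 74.0% and 73.7%.

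Each window held CCAAT once, searched on both strands, a motif in 37.4% of all 32851 windows of that table. The match is in capitals, first in the minus-strand window of Col4a1 at chr8:11312954-11312983, where the opposite strand reads CCAAT, and then in the plus-strand window of Col4a2 at chr8:11312761-11312790.
Col4a1 CCAAT: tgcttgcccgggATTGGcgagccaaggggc
Col4a2 CCAAT: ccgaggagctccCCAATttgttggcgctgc
The GC box letters GGGCGG, found in 35.7% of windows, occurred once in the Col4a1 window and 3 times in that of Col4a2, and 1 of these matches, chr8:11312812-11312817 within the 22 shared bases, is the same site. GCGTG occurred once in each window and in 32.4% of all windows. TGANTCA, present in 7.8% of windows, and ACGTG, present in 19.6%, were in neither window.

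Col4a1, which encodes the alpha 1 chain, gave the largest log2 difference of any chain at 8 h in both tissues. On the 4 sham cortex arrays it read 7.65, 7.60, 7.28 and 7.92, and at 8 h 8.87, 8.44, 9.19 and 8.17, so every 8 h array lay above every sham array. It rose 2.08-fold, a log2 difference of 1.06 ± 0.27 (SE, n = 4 per group; limma adjusted p = 0.0253). In the striatum sham arrays read 7.78, 7.63, 7.50 and 7.71 and the 8 h arrays 8.46, 8.94, 9.08 and 8.72, again without overlap. There it rose 2.20-fold, by 1.14 ± 0.29 (SE; limma adjusted p = 0.0371).

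At 2 h the 4 cortex arrays read 8.39, 8.02, 8.15 and 8.29, all above the sham arrays, with a difference of 0.60 ± 0.27 (SE) that did not pass the test (limma adjusted p = 0.286). The striatum arrays read 7.77, 8.08, 8.09 and 8.04 at 2 h, with 1 of them inside the sham range. The call at 8 h in the cortex was lost without any of cortex sham replicates 1, 2 and 3 or I/R 8 h replicates 1 and 3. In the striatum it was lost without each single sham or 8 h array except I/R 8 h replicate 1, and also with median scaling (adjusted p = 0.0584), without the detection filter (0.0592) and in the authors' ratio matrix (0.156). The difference within each slide that held a sham array ran from 0.25 to 1.25 in the cortex and from 0.75 to 1.43 in the striatum.

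Col4a2, which encodes the alpha 2 chain that pairs with alpha 1 in the same trimer, had smaller differences at 8 h, and they did not pass. Sham cortex read 7.45, 7.42, 7.38 and 8.06, the 2 h arrays 7.34, 7.65, 7.60 and 7.71, and the 8 h arrays 7.79, 8.08, 8.31 and 8.02. The 8 h difference was 0.47 ± 0.22 (SE; limma adjusted p = 0.202) in the cortex, with sham replicate 4 inside the range of the 8 h arrays. In the striatum, where sham read 7.91, 7.58, 7.33 and 7.43 and 8 h read 7.60, 8.38, 8.18 and 7.83, it was 0.43 ± 0.23 (SE; limma adjusted p = 0.312). Whether Col4a1 and Col4a2 differed from each other in response was not tested, since each value comes from a different probe.

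**Figure D2:**
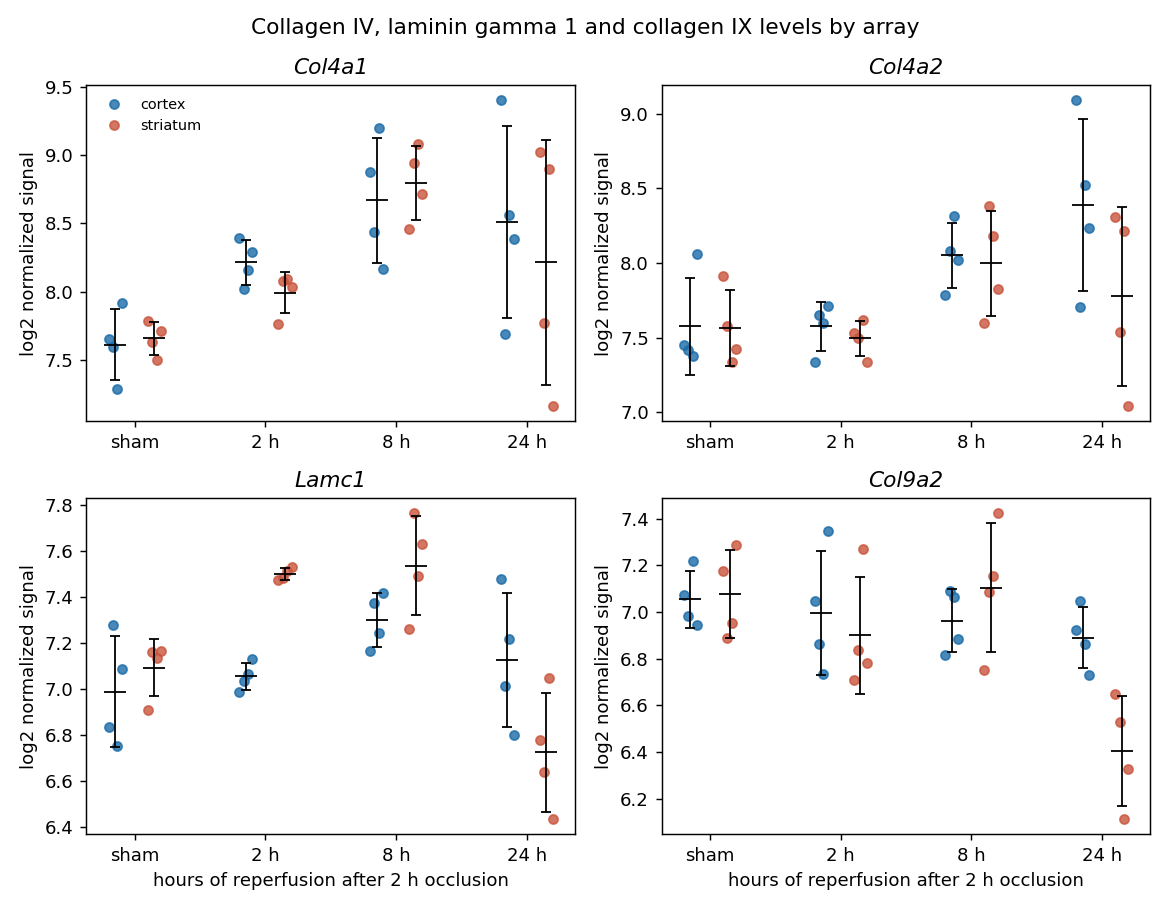
Log2 normalized signal of Col4a1, Col4a2, Lamc1 and Col9a2 on each of the 4 arrays per group (points, cortex blue and striatum red) in sham and at 2, 8 and 24 h of reperfusion, with mean and SD as bars. Col4a1 lay above all sham arrays on every 8 h array of both tissues, and its values spread over 7.69 to 9.40 in the cortex and 7.16 to 9.02 in the striatum at 24 h.

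At 24 h the spread of both genes between arrays was wide. Col4a1 read 9.40, 7.69, 8.56 and 8.39 on cortex replicates 1 to 4, and Col4a2 read 9.09, 7.70, 8.52 and 8.24. Replicate 1 was highest and replicate 2 was inside the sham range for both genes. Both rose in the cortex, Col4a1 by 0.90 ± 0.27 (SE; limma adjusted p = 0.0339) and Col4a2 by 0.81 ± 0.22 (SE; limma adjusted p = 0.0214). In the striatum Col4a1 read 9.02, 7.77, 8.90 and 7.16 and Col4a2 8.31, 7.54, 8.22 and 7.04, with replicates 1 and 3 high and replicates 2 and 4 within or below the sham range. The striatum differences were 0.56 ± 0.29 (SE; limma adjusted p = 0.19) for Col4a1 and 0.21 ± 0.23 (SE; limma adjusted p = 0.556) for Col4a2.

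Col18a1, the basement membrane collagen XVIII from which endostatin is cleaved, followed the same order of arrays in the striatum. In sham cortex it read 6.29, 6.65, 6.42 and 6.60, at 8 h 6.38, 5.85, 6.67 and 6.50, and at 24 h 8.07, 6.57, 7.17 and 7.51. It rose by 0.84 ± 0.24 (SE; limma adjusted p = 0.0285) at 24 h against sham and by 0.98 ± 0.24 (SE; limma adjusted p = 0.0217) against 8 h, a comparison in which 1 of 19 chains rose and 1 fell and 6.73% of all genes were called, 3.28% higher and 3.44% lower. Replicate 2 was again in the sham range. The call against 8 h was lost without cortex I/R 8 h replicate 2 or I/R 24 h replicate 1 or 4. The summed choroid plexus list ran from 1284 to 17245 on the cortex 24 h arrays, and from 8 to 24 h 6 of 7 endothelial markers rose in the cortex, with a median of 1.12, and 2 of 5 macrophage markers, with a median of 0.93. Their part in the Col18a1 values, and in those of Lamb3 from 8 to 24 h, was not tested. On the striatum arrays at 24 h Col18a1 read 8.50, 7.74, 8.25 and 7.08, a difference of 0.45 ± 0.24 (SE; limma adjusted p = 0.202) from sham arrays at 7.43, 7.32, 7.25 and 7.79. Without striatum I/R 24 h replicate 4, Col4a1 at 0.91 ± 0.23 (SE; limma adjusted p = 0.0123) and Col18a1 at 0.72 ± 0.20 (SE; limma adjusted p = 0.0198) passed as higher, and the count became 2 higher and 2 lower of 19. Without striatum I/R 24 h replicate 2, none passed as higher and Col9a2 alone passed as lower. The share of all genes called without these arrays was not counted.

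Cell type markers also differed from sham at these times. Over all genes, 3.4% fell in the cortex and 1.78% in the striatum at 8 h, and 6.96% and 9.35% rose at 24 h. At 8 h in the cortex 4 of 7 measured endothelial markers fell and none rose, with a list median of -0.73, and their summed linear level was 1005 to 1356 against 1836 to 2204 in sham. In the striatum 3 of 7 fell at 8 h, with a median of -0.53 and sums of 1086 to 1889 against 1964 to 2240. Flt1, a VEGF receptor, fell by 1.45 in the cortex and by 0.93 in the striatum at 8 h. Tek, the angiopoietin receptor, fell by 1.06 and 0.77 at that time, when Col4a1 was called higher. The endothelial fall was already present at 2 h. In the cortex 4 of 7 markers were called lower then and 0 higher, against 1.16% of all genes called in either direction. Their median was -0.68 and their sums were 1073 to 1249. In the striatum the sums at 2 h were 1293 to 1815. At 24 h in the cortex 4 of 7 endothelial markers rose, with a median of 0.77 and sums of 2432 to 4286, among them Vwf by 1.36, Pecam1 by 1.04 and Cldn5 by 0.90. In the striatum 1 of 7, Cldn5, rose by 0.89 at 24 h, and sums of 2728 to 3447 lay above those of all sham arrays on all 4 arrays, replicates 2 and 4 included. Hba-a1, a haemoglobin gene of blood, rose by 4.48 and 4.56 in the cortex at 8 and 24 h and by 3.74 in the striatum at 8 h, while 2.01 in the striatum at 24 h did not pass (adjusted p = 0.148). No endothelial marker was undetected on all arrays. In bulk tissue fewer cells of a type and less RNA per cell cannot be told apart, and the part of the marker shifts in the collagen values was not tested.

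**Figure D3:**
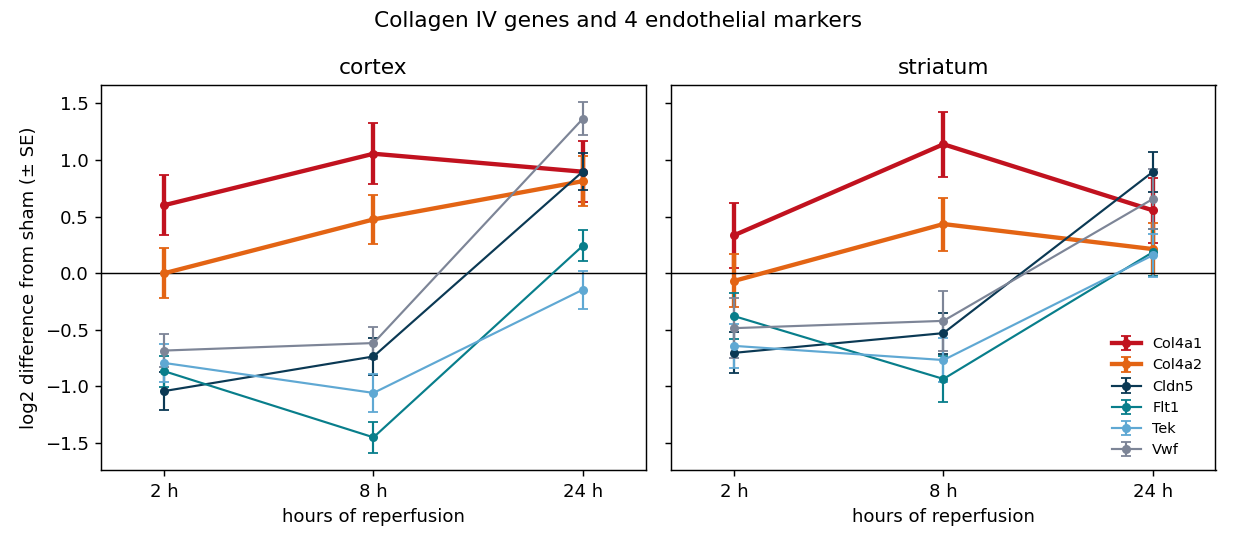
Log2 difference from sham with its SE for Col4a1 and Col4a2 (thick lines) and the endothelial markers Cldn5, Flt1, Tek and Vwf (thin lines) at 2, 8 and 24 h of reperfusion in each tissue. At 8 h Col4a1 stood at 1.06 in the cortex and 1.14 in the striatum while Flt1 stood at -1.45 and -0.93, and at 24 h Cldn5 and Vwf were above 0 in both tissues.

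Macrophage and microglia markers also differed at 24 h, when 6.96% of all genes in the cortex and 9.35% in the striatum were higher. In the cortex 3 of 5 rose, with a median of 1.65 and sums of 1069 to 4064 against 811 to 901 in sham. In the striatum 1 of 5 rose, with a median of 0.73 and sums of 877 to 2247 against 827 to 1089. The pericyte list had 0 of 6 higher and 1 lower in each tissue at 24 h, the lower gene being Rgs5. Of 9 meningeal and perivascular fibroblast markers, 2 rose and 1 fell in the cortex and 1 rose in the striatum, with sums of 4550 to 7202 and 5317 to 7889 against 4861 to 5564 and 4874 to 7169 in sham. Their part in the 24 h values was not tested.

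**Figure D4:**
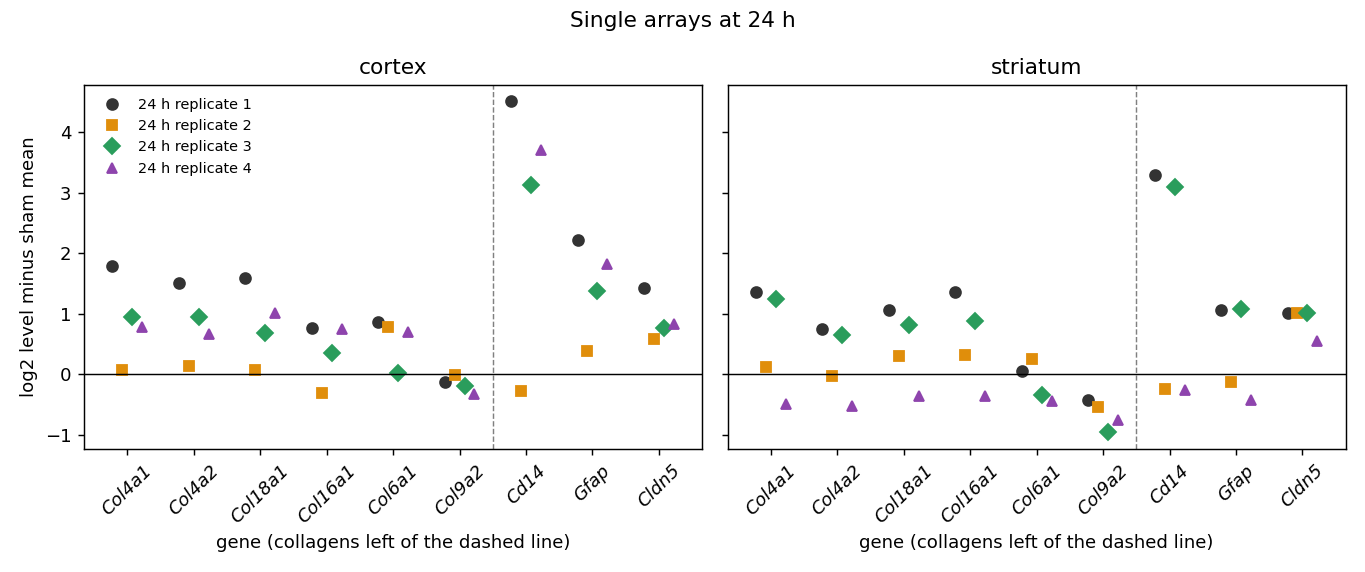
Log2 level on each 24 h array minus the mean of the tissue's sham arrays, for 6 collagen genes and the markers Cd14, Gfap and Cldn5 (one symbol per replicate). In the cortex replicate 2 lay near 0 for Col4a1, Col4a2 and Col18a1, and in the striatum replicates 1 and 3 stood above replicates 2 and 4 for those genes, while Col9a2 was below 0 on all 4 striatum arrays.

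Calls at 24 h in the cortex depended on single arrays. Without cortex I/R 24 h replicate 2, the array with the lowest Cd14, 5 of the 6 calls were kept, Col6a1 lost its call and Col16a1 gained one. Without replicate 1, the array with the highest Col4a1, 0 of 19 passed, and without sham replicate 1 also 0. The count was 1 without sham replicate 2 or 3, 2 without I/R 24 h replicate 4, 4 without replicate 3 and 6 without sham replicate 4. The share of all genes called was not counted with an array left out. Whether these counts moved with the chains or with the whole comparison therefore cannot be told. Within the 3 slides that held sham arrays, all 6 called chains had the direction of the call on every slide. Taken singly, the Col4a1 call was kept without sham replicate 4 or I/R 24 h replicate 2 only, and that of Col6a1 without sham replicate 4 or I/R 24 h replicate 3 only. Each of Col4a2, Col18a1, Col25a1 and Col6a2 lost its call without I/R 24 h replicate 1 and without sham replicate 1, and without further arrays. When sham and 24 h arrays were fitted without the other times, Col6a2 alone kept its call, and without the detection filter Col4a2 and Col6a2 alone did.

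The beaded filament collagen VI, which links cells to the surrounding matrix, is built of Col6a1, Col6a2 and further chains. In the cortex Col6a1 read 7.68, 7.63, 7.68 and 8.41 in sham and 8.72, 8.64, 7.86 and 8.54 at 24 h, with replicate 3 inside the sham range. It rose by 0.59 ± 0.18 (SE; limma adjusted p = 0.035), but its second probe gave 0.29 (adjusted p = 0.384). The Col6a1 call passed in 6 of 13 other settings. Its difference was 0.30 in the deposited gene table after background correction and normalization (limma adjusted p = 0.0867). As a mean over probes it was 0.44 (limma adjusted p = 0.114). Col6a2 read 5.23, 5.29, 5.06 and 5.35 in sham and 5.80, 5.90, 5.84 and 5.55 at 24 h, without overlap, and rose by 0.54 ± 0.16 (SE; limma adjusted p = 0.0331). Col6a2 was detected on 1 of 4 sham arrays and on 1 and 2 arrays at 2 and 8 h, so it entered the cortex test only through the 24 h group, and its call was lost with slide as a block (0.49, adjusted p = 0.0574) and in the authors' ratio matrix (0.30, adjusted p = 0.0587). After background correction and normalization of the deposited gene table, the Col6a2 difference was 0.07 (limma adjusted p = 0.0318). Its mean raw signal in that table was 72.2 in sham and 93.0 at 24 h. In the striatum Col6a1 was -0.69 ± 0.25 (SE; limma adjusted p = 0.331) at 2 h and -0.12 ± 0.25 at 24 h, and Col6a2 did not enter. The second Col6a1 probe gave -0.45 at 2 h and 0.34 at 24 h there and passed at neither time.

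Among the transmembrane collagens, Col25a1, whose shed ectodomain is known as a component of amyloid plaques, was lower in the cortex at 24 h. It read 6.57, 6.80, 6.27 and 6.25 in sham and 5.84, 5.98, 6.11 and 5.85 at 24 h, with no overlap, and fell by 0.53 (SE 0.15; limma adjusted p = 0.024). After background correction and normalization of the deposited gene table, the difference was -0.06 (limma adjusted p = 0.0277). The mean raw signal of Col25a1 in that table was 84.8 in sham and 74.6 at 24 h. Its other 2 tested probes gave -0.45 (adjusted p = 0.141) and -0.65 (adjusted p = 0.039). In the striatum the probes disagreed at 24 h: the brightest gave -0.08 (adjusted p = 0.815) and the others -0.58 (adjusted p = 0.071) and -0.67 (adjusted p = 0.012). Col23a1, the other transmembrane member tested, stood at -0.37 and -0.38 in the cortex at 8 and 24 h and between -0.09 and -0.01 in the striatum, and passed at no time.

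The fibril-associated collagens (FACIT) sit on the surface of larger fibrils, and only Col9a2 changed among the 4 tested. In the striatum Col9a2, the alpha 2 chain of collagen IX, read 7.18, 6.89, 6.95 and 7.29 in sham and 6.71, 6.84, 7.27 and 6.78 at 2 h. Later arrays read 6.75, 7.08, 7.16 and 7.42 (8 h) and 6.65, 6.53, 6.11 and 6.33 (24 h). All 24 h arrays lay below all sham and all 8 h arrays, replicates 2 and 4 included. It fell by 0.67 (SE 0.17; limma adjusted p = 0.0127) against sham and by 0.70 (SE 0.17; limma adjusted p = 0.0145) against 8 h, a comparison in which 2 of 19 chains fell and none rose, against 13.6% of all genes called, 6.22% higher and 7.39% lower. The fall against sham passed without each single sham or 24 h array in turn, with differences within slides of -1.17 to -0.38. The fall against 8 h was lost without striatum I/R 8 h replicate 4. In the cortex Col9a2 differed from sham by -0.06, -0.09 and -0.16 at 2, 8 and 24 h, and the difference of the 24 h responses between tissues was -0.51 ± 0.21 (SE; limma adjusted p = 0.18).

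Col16a1, another fibril-associated chain, spread by array in the way Col4a1 did in the striatum. It read 7.87, 8.28, 8.41 and 8.78 in sham striatum and 9.70, 8.64, 9.22 and 7.97 at 24 h, a difference of 0.55 ± 0.33 (SE; limma adjusted p = 0.256). In the cortex it read 7.64, 7.78, 7.58 and 7.97 in sham and 8.50, 7.44, 8.09 and 8.48 at 24 h, a difference of 0.39 ± 0.19 (SE; limma adjusted p = 0.166). Col12a1 and Col9a1 did not pass in any comparison, with differences from sham between -0.05 and 0.04 and between -0.31 and -0.05.

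Of the fibrillar chains, Col5a1 and Col11a2 were tested in the cortex and Col2a1 and Col11a2 in the striatum, and none passed against sham. Col5a1, a regulator of fibril diameter, stood at -0.06, -0.23 and 0.21 at 2, 8 and 24 h in the cortex. Col11a2 stood at -0.03, -0.22 and 0.03 there. Col7a1, the anchoring fibril collagen, did not pass either: its differences were 0.17, 0.29 and 0.34 in the cortex and -0.46, -0.14 and -0.20 in the striatum. On cortex I/R 24 h replicate 1 Col7a1 read 6.44, above the other 3 arrays at 5.24 to 5.64, and on the striatum array of that number 6.32 against 4.92 to 5.19. The array names an additional collagen, Col26a1, by an older symbol outside the pattern; it fell by 0.66 in the cortex at 8 h (SE 0.18; limma adjusted p = 0.0369).

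Among the laminins, Lamc1, the gamma 1 chain found in most laminins of brain vessels, fell late in the striatum. In the striatum Lamc1 read 6.91, 7.16, 7.13 and 7.16 in sham and 7.47, 7.48, 7.51 and 7.53 at 2 h. Later arrays read 7.26, 7.76, 7.49 and 7.63 (8 h) and 6.78, 6.64, 7.05 and 6.43 (24 h). The arrays at 2 and 8 h all lay above the sham arrays, and those at 24 h all lay below the 8 h arrays. The differences from sham did not pass at 2 h (0.41 ± 0.14 SE, limma adjusted p = 0.287), at 8 h (0.44 ± 0.14, 0.0853) or at 24 h (-0.37 ± 0.14, 0.0758). From 8 to 24 h Lamc1 fell by 0.81 (SE 0.14; limma adjusted p = 0.00275), and this call held without each single 8 h or 24 h array. In the same comparison 6.22% of all genes were higher and 7.39% lower. There 6 of 7 endothelial markers rose, with a median of 1.08, and 3 of 5 macrophage markers rose, with a median of 0.74. The choroid plexus list had 1 of 6 lower, with all 6 below 0 and a median of -0.95. Their part in the falls of Lamc1 and Col9a2 from 8 to 24 h was not tested. In the cortex Lamc1 differed from sham by 0.07, 0.31 and 0.14 and did not pass.

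Of the beta chains, Lamb2 belongs to vascular and synaptic laminins and Lamb3 to the epithelial laminin 332. Lamb2 lay between -0.04 and 0.01 of sham in the cortex at all 3 times and at 0.35, 0.14 and 0.13 in the striatum, passing at none. Lamb3 read 5.34, 5.43, 5.25 and 5.95 in sham cortex, 5.69, 6.20, 6.56 and 5.95 at 8 h and 5.03, 5.16, 5.29 and 5.64 at 24 h. From 8 to 24 h it fell by 0.82 (SE 0.22; limma adjusted p = 0.0344), with no overlap, while the 8 h difference from sham was 0.61 ± 0.22 (SE; limma adjusted p = 0.105). It was detected on 3, 2, 4 and 1 cortex arrays in sham and at 2, 8 and 24 h, so it entered only through the 8 h group, and the call was lost without cortex I/R 8 h replicate 2 or 3 or I/R 24 h replicate 1 or 3. In the striatum Lamb3 stood at 0.46, 0.73 and 0.06 at the 3 times and passed at none.

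The remaining laminin chains were low or steady. Lamc3, a gamma chain of brain and retina, read 5.42, 5.23, 5.29 and 5.34 in sham striatum and 5.0, 4.90, 4.89 and 4.90 at 24 h, where it was above background on no array. Lamc3 entered the striatum test through sham and 2 h, the groups where it was detected on 4 of 4 arrays, so its place among the 2 falls is no support for a count. Sham was at least 1.06-fold higher than the detection limit of the 24 h arrays, and the measured difference of -0.40 ± 0.12 (SE) had a limma adjusted p of 0.0286. The Lamc3 call was kept without sham replicate 2 or I/R 24 h replicate 4 only, and was lost with median scaling and in the authors' ratio matrix; with detection required on every array Lamc3 did not enter. Lama2, the alpha 2 chain of astrocyte endfeet and pericytes, stood at 0.24, -0.07 and -0.31 in the cortex and at 0.31, 0.10 and 0.04 in the striatum. Lama1, tested in the striatum, stood at -0.05, 0.14 and 0.19. Neither Lama1 nor Lama2 passed at any time.

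Between neighbouring times, 0 of 19 chains passed limma's threshold from 2 to 8 h in either tissue, against 0.68% of all genes in the cortex and 0.903% in the striatum, with 2 and 4 chains under an unadjusted p of 0.05. In the striatum Col4a1 was 0.80 ± 0.29 (SE; limma adjusted p = 0.206) higher at 8 than at 2 h, and all 8 h arrays lay above all 2 h arrays.

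The comparison of sham tissues asked which chains differ by region without injury. The tissues were run on separate slides, so region and slide cannot be told apart here. The striatal gene Ppp1r1b did not differ between them, which further limits what can be said of region. Of 22 chains tested over 32 arrays, 1 was higher and 2 were lower in sham striatum than in sham cortex, against 26.7% of all genes called, 13.8% higher and 12.8% lower. Col18a1 was 0.96 ± 0.25 (SE; limma adjusted p = 0.00508) higher in the striatum, with all 4 striatum arrays above all 4 cortex arrays, and this call held without each single sham array. In the same comparison the choroid plexus list had a median of 0.87 and 1 of 6 genes called, Otx2 at 2.02. The part of choroid plexus RNA in the Col18a1 value was not tested.

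Col5a1 was lower in sham striatum by 0.68 (SE 0.24; limma adjusted p = 0.0359), with striatum replicate 4 at 6.02 inside the cortex range of 5.90 to 6.71. The Col5a1 call was lost without cortex sham replicate 1 or 4 or striatum sham replicate 1, 2 or 3. Col5a1 entered this fit through cortex groups. Col4a1 and Col4a2 differed by 0.05 ± 0.30 and -0.01 ± 0.24 (SE) between the sham tissues.

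The I/R responses of the tissues were compared directly, striatum minus cortex, in the same fit. At 2, 8 and 24 h 0 of 22 chains passed limma's threshold, against 0%, 0.0198% and 1.78% of all genes, with 1, 0 and 4 chains under an unadjusted p of 0.05. For Col4a1 the differences were -0.27, 0.08 and -0.34, each with an SE of 0.42, and for Col4a2 at 24 h -0.60 ± 0.34 (SE; limma adjusted p = 0.326). The most negative values were those of the brightest Col6a1 probe, -0.91 ± 0.32 (SE; limma adjusted p = 0.87) at 2 h and -0.71 ± 0.32 (SE; limma adjusted p = 0.217) at 24 h. The second Col6a1 probe did not bear this out. Against sham it gave -0.45 in the striatum and -0.21 in the cortex at 2 h, and 0.34 and 0.29 at 24 h. The calls made in the cortex alone at 24 h were thus not shown to differ from the striatum.

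Genes that make, anchor or bind collagens and laminins were followed as 4 lists, tested by limma in the same fits. Of 16 tested genes of collagen processing, 5 rose and none fell in the cortex at 24 h, with a median of 0.20, beside 6.96% higher and 7.16% lower over all genes. The 4 with the largest change were Crtap by 0.75, a partner of a collagen prolyl hydroxylase, Pcolce by 0.74, which enhances procollagen cleavage, and the crosslinking oxidases Loxl1 by 0.95 and Lox by 1.49. Lox was undetected on all 4 sham cortex arrays and at least 1.99-fold higher at 24 h, at 7.33, 4.94, 5.33 and 7.70 on the 4 arrays. Lox therefore entered the cortex test only through an I/R group, so its place among the 5 rises is no support for a count. In the striatum 2 of 16 rose, against 9.35% of all genes, Lox by 1.30 and the procollagen protease Bmp1 by 0.91, and P4ha2, a prolyl hydroxylase subunit, fell by 0.56. At 8 h 3 of 16 rose in the cortex, against 3.72% of all genes, Colgalt2 by 0.54, P4hb by 0.48 and Pcolce2 by 0.68. In the striatum 0 of 16 passed at 8 h, against 3.51% of all genes.

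Leaving out single sham or 24 h arrays, a check chosen after the values were seen, gave 2 to 7 higher genes of collagen processing in the cortex and 0 to 3 in the striatum. The lowest cortex count came without cortex sham replicate 3 and the highest without I/R 24 h replicate 2, and the striatum had 0 without I/R 24 h replicate 1. In the cortex the other basement membrane proteins gave 0 to 4 higher genes, the receptors 0 to 2 and the other matrix proteins 0 to 3, each with 0 without I/R 24 h replicate 1 and the highest count without I/R 24 h replicate 2. In the striatum the receptors gave 1 throughout, the other matrix proteins 1 to 2 and the other basement membrane proteins 0 to 1. Lower genes numbered 0 to 1 for collagen processing in each tissue and for the other basement membrane proteins in the cortex. The rest had no lower gene. The share of all genes called was not counted for these omissions either.

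Of 9 other basement membrane proteins, 2 rose in the cortex at 24 h, Hspg2 (perlecan) by 0.80 and Fbln1 (fibulin 1) by 0.57, against 6.96% of all genes higher. In the striatum 0 passed at 24 h, against 17.6% of all genes called. Agrn, the heparan sulfate proteoglycan agrin of endfeet, fell by 0.38 in the cortex at 8 h, where 3.4% of all genes were lower. Hspg2 read 6.55, 6.08, 5.73 and 6.20 in sham cortex and 7.45, 6.48, 7.15 and 6.68 at 24 h, beside 6.39, 6.19, 6.31 and 6.45 in sham striatum and 6.07, 5.64, 6.63 and 5.80 at 24 h. Crtap read 6.15, 6.34, 6.41 and 6.57 in sham cortex and 7.55, 6.75, 7.04 and 7.14 at 24 h, with no overlap, and 6.76, 6.74, 6.86 and 6.62 against 6.71, 6.63, 6.65 and 6.25 in the striatum. At 24 h the response of both genes differed between the tissues, by -1.10 ± 0.29 (SE; limma adjusted p = 0.0451) for Hspg2 and -0.94 ± 0.21 (SE; limma adjusted p = 0.0233) for Crtap. Both calls were lost with median scaling (adjusted p = 0.0747 for Crtap and 0.0909 for Hspg2), without the detection filter, in the authors' ratio matrix and with the compared groups alone.

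Of the receptors, Dag1, the dystroglycan that binds laminin at endfeet, fell by 0.47 in the cortex at 8 h and rose by 0.44 in the striatum at 24 h. Itga7, a laminin-binding integrin chain, rose by 0.75 in the cortex at 24 h. It was detected on 1 of 4 sham arrays, so it entered the cortex test only through an I/R group. The other members of that list did not pass against sham, out of 7 tested in the cortex and 8 in the striatum. Over all genes, 3.4% were lower in the cortex at 8 h, and 6.96% in the cortex and 9.35% in the striatum were higher at 24 h. Of 6 other matrix proteins, Tnc (tenascin C) rose by 1.63 and Lum (lumican) by 1.13 in the cortex at 24 h, and Tnc by 1.24 and Dcn (decorin) by 1.14 in the striatum. These were 2 of 6 in each tissue, beside the same shares over all genes at 24 h.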

How the data were processed

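Labelled RNA of 32 samples was hybridised to Illumina mouse Ref-8 V2 bead arrays. Per the file headers, the authors exported intensity values with BeadStudio 3.3.7 as mean bead signals without normalization, and the deposited tissue tables give detection as a fraction, 1 minus the detection p-value. The deposited series matrix holds a ratio of each value to the mean of its tissue's sham arrays, found by setting it against the scanner values, and was used as an alternative. Per-sample columns that belong to no listed sample (8, from 1 further array) were unused. Arrays are numbered as in the whole table, whose numbers disagree with the descriptions for all 32 arrays, always within the same group.

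Probe signals of the whole table were background-corrected with limma 3.58.1 (R 4.3.3; normexp from detection p, offset 16), quantile-normalized over 32 arrays and put on the log2 scale, and 837 probes without values were dropped. The cortex table is per gene, so probe detection there was read from each array's own curve of signal against detection. A probe was kept if all 4 arrays of some fitted group detected it, and each gene was represented by its brightest probe. The 4 groups of a tissue (9561 genes in the cortex, 9860 in the striatum), or all 8 groups (10080 genes) for the tissue comparisons, were fitted with lmFit and eBayes with a variance trend. Tests were 2-sided, and p-values were adjusted over all genes by the method of Benjamini and Hochberg, with a threshold of 0.05. An undetected group is given as a bound against the arrays' detection limit. The number of arrays limits the precision, and the median probe had 36 beads in the cortex and 38 in the striatum. The fit was tested on simulated data.

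Every chain that the name pattern finds is counted, and all but 1, which is not reported here, are named, with full statistics for those past the threshold, and at most 4 called genes of a partner list, those with the largest change, are named. The chains, partner lists and markers were chosen with earlier results of these data known, so no p is given over a list. Alternatives covered background, offset, scaling, the detection filter, the tissue tables, the ratio matrix, probe averaging, the groups fitted, slide and replicate blocks, array weights and leaving out each array.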

Additional observations from a re-analysis of the deposited data

Results flagged for a closer look

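Of 152 sets of 4 arrays (a tested chain in a group), 10 had 1 array far from the other 3, by a gap that took up most of the group's range (Dixon's test at the 95% level). Chance gives such a gap in about 1 in 20 sets. Cortex sham replicate 4 was the high array for 3 chains: Col4a2 at 8.06 with the next array at 7.45, Col5a1 at 6.71 with the next at 6.02, and Col6a1 at 8.41 with the next at 7.68. In the striatum at 2 h, Col18a1 stood at 7.68 on replicate 4, Col25a1 at 6.80 on replicate 1 and Col4a1 at 7.77 on replicate 1, with the nearest other arrays at 7.22, 6.31 and 8.04. The remaining values were Lama2 at 5.50 on cortex I/R 24 h replicate 4 (nearest 6.14), Lamb3 at 6.16 on cortex I/R 2 h replicate 4 (nearest 5.38), Lamc1 at 6.91 on striatum sham replicate 1 (nearest 7.13) and Lamc3 at 5.0 on striatum I/R 24 h replicate 1 (nearest 4.90).

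The 24 h response differed between striatum and cortex for 2 partner genes, Crtap by -0.94 and Hspg2 by -1.10 (striatum minus cortex, log2). Leaving out each of the 16 sham and 24 h arrays in turn, Crtap stayed between -1.06 and -0.80 and passed limma's threshold in 12 of 16, and Hspg2 stayed between -1.29 and -0.93 and passed in 5 of 16. The highest adjusted p was 0.059 for Crtap, without cortex sham replicate 1, and 0.0952 for Hspg2, without cortex sham replicate 3. In 11 other settings, a check added after the values were seen, each gene kept its sign and lost its call in 4, with adjusted p up to 0.0766 for Crtap and 0.115 for Hspg2.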

How the results depend on the processing

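Counts are of called chains out of 19 in a tissue or 22 over both, and up to 13 other settings were run per comparison besides leaving out single arrays. Every chain that was called kept its direction under every setting that gave it a value. Fitting the compared groups alone gave 1 called chain instead of 0 in the cortex at 2 h, 1 instead of 6 in the cortex at 24 h, 0 instead of 2 in the cortex from 8 to 24 h, 1 instead of 0 in the striatum from 2 to 8 h, 1 instead of 2 in the striatum from 8 to 24 h, and 5 instead of 3 between sham tissues. Array weights gave 1 instead of 0 in the cortex at 2 h, 3 instead of 1 in the cortex at 8 h, 2 instead of 1 in the striatum at 8 h, 5 instead of 3 between sham tissues and 1 instead of 0 for the response difference at 24 h. The deposited tissue tables gave 3 in the cortex at 24 h and 1 in the cortex from 8 to 24 h. No detection filter gave 1 in the cortex from 8 to 24 h and 0 in the striatum at 8 h, and in the cortex at 24 h 4 of the 6 calls were lost (Col4a1, Col18a1, Col25a1 and Col6a1) and 2 others gained, and detection on every array gave 1 in the cortex from 8 to 24 h, 1 in the striatum at 24 h and 1 between sham tissues. Median scaling and the ratio matrix each gave 0 in the striatum at 8 h and 1 at 24 h. The causes were not tested. Leaving out single arrays gave 0 to 1 called chains in the cortex at 8 h, 0 to 6 at 24 h and 0 to 3 from 8 to 24 h, 0 to 1 in the striatum at 8 h, 1 to 4 at 24 h and 1 to 3 from 8 to 24 h, and 2 to 3 between sham tissues, with 0 throughout for the other comparisons. The share of all genes called was not counted for these omissions. Over all genes, median scaling called 848 instead of 1734 in the striatum at 24 h, 358 instead of 681 in the cortex at 8 h, 160 instead of 346 in the striatum at 8 h, 518 instead of 1342 in the striatum and 418 instead of 643 in the cortex from 8 to 24 h, 71 instead of 111 in the cortex at 2 h, 20 instead of 89 in the striatum from 2 to 8 h and 1 instead of 179 for the response difference at 24 h. It put the share of higher calls at 65.1% instead of 52.3% in the cortex at 8 h and at 63.4% instead of 47.7% at 2 h. In the striatum the ratio matrix called 0 genes instead of 18 at 2 h, 9 instead of 346 at 8 h and 416 instead of 1734 at 24 h. From 8 to 24 h it called 277 instead of 1342 there. In the cortex it called 268 instead of 681 at 8 h and 977 instead of 1350 at 24 h. The shares over all genes given beside the counts thus depend on the scaling. Deviations of cortex arrays with the same replicate number correlated at a mean of 0.105 (lowest -0.176), beside -0.034 for different numbers. In the striatum the means were -0.006 (lowest -0.266) beside 0.002, and between tissues 0.011 (lowest -0.321) beside -0.004. I/R arrays of a tissue with the same number shared a slide, so replicate number and slide cannot be told apart among them. With the replicate block 6 chains were called in the cortex at 24 h, as without it, and no count of called chains moved. The ratio matrix cannot compare the sham tissues, since each tissue was divided by its own sham mean. With 4 arrays a group, and chains near background such as Col6a2, Lamb3 and Lamc3, small differences were not detectable.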
